A study of Mus musculus with 24 samples.

Results

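The comparison set 6 libraries of co-cultured C2C12 against 6 libraries of co-cultured NSC34, 12 of the 24 libraries of the series. They were chosen by their labels alone: the line is C2C12 or NSC34, and the treatment is co-culture, which lasted 3 days. C2C12 is a mouse line of myoblasts that fuse into contractile myotubes in culture. NSC34 is a hybrid line of mouse neuroblastoma and embryonic spinal cord cells, labelled here as motor neuron. Both lines are labelled wild type, and each was also grown without the other as a control (6 libraries per line). The co-cultured groups therefore differ in the line the library is labelled with, and share the treatment. Each line stands in a table of its own, so line, table and sequencing depth cannot be told apart. Total RNA was extracted with Trizol and read on a Nanopore MinION. How the lines were kept apart or parted for extraction, and whether replicates were separate cultures, is not given in the sources used here, so the p-values below measure the spread between these libraries, which may be technical. The series title names Apoe3, Lrp4 and the clustering of acetylcholine receptors, and the question followed here is how distinct the lines remained when grown together, and whether RNA of one was found in the libraries of the other.

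Differentiating myoblasts leave the cell cycle, switch on the transcription factor myogenin and then the actins, myosin light chains and troponins of the sarcomere, the contractile unit of muscle. They also make the muscle side of the neuromuscular synapse: acetylcholine receptor subunits and the LRP4, MuSK, DOK7 and rapsyn proteins that gather the receptor opposite the nerve ending. Motor neurons are known by choline acetyltransferase, LIM and homeobox factors, neuronal tubulin and intermediate filaments, and the proteins of secretory vesicles. As cultured line cells, NSC34 divide unless they are made to differentiate.

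The co-cultured C2C12 libraries held 143502 to 547071 reads and the co-cultured NSC34 libraries 2807 to 30314, of which replicate 2 gave 55.1% of all co-cultured NSC34 reads. Levels are given as CPM (reads of the gene per 1000000 reads of the library), not divided by transcript length, so they compare 1 gene between libraries and not 1 gene with another. Over all 55007 co-cultured NSC34 reads, a gene without a read may have made up to 54.5 CPM (3 reads of the total), against 1.66 CPM over the 1812360 co-cultured C2C12 reads. Without replicate 2 the NSC34 limit is 121 CPM, and each lower bound set against it below is 2.23 times smaller. Such limits and the intervals below cover counting error only. In bulk libraries, fewer cells of a type and less RNA per cell cannot be told apart. When each library was thinned at random to 2807 reads, 1214 to 1268 genes were found per C2C12 library and 1203 to 1315 per NSC34 library. At that depth, and across 575 genes, which are not independent replicates, Pearson's r of log2(reads + 1) was 0.660 to 0.718 between C2C12 libraries, 0.639 to 0.694 between NSC34 libraries and 0.243 to 0.381 between the lines. Each of the 36 pairs across the lines was thus less alike than each of the 30 pairs within one. With the reads of a group pooled and thinned to 15858, r between the lines was 0.330 in co-culture and 0.317 in the controls, against 0.791 between C2C12 control and co-culture and 0.737 between NSC34 control and co-culture.

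The 4 line markers separated the libraries, and 1 of them did so against its label. Myog, which encodes myogenin (chromosome 1, 134289989 to 134292548, positions from GENCODE M21 on GRCm38), was at a lowest, median and highest level of 2491, 3329 and 3672 CPM in co-cultured C2C12 and had 0 reads in all 6 co-cultured NSC34 libraries, at least 55.1-fold higher in C2C12. Acta1, skeletal muscle actin (chromosome 8, 123891769 to 123894751), was at 3052, 3415 and 3709 CPM and also had 0 NSC34 reads, at least 62.0-fold higher. Tubb3, the neuronal beta-tubulin (chromosome 8, 123411424 to 123422015), was at 105, 378 and 994 CPM in NSC34 on 21 reads, and at 34.8, 50.2 and 65.5 CPM in C2C12. All 6 NSC34 libraries lay above all 6 of C2C12, with a pooled ratio of 7.44 (95% interval 4.4 to 12), although the gene had too few reads for the test. NSC34 replicates 1 to 6 held 1, 13, 2, 3, 1 and 1 of its reads, so in replicates 1, 5 and 6 the gap rests on 1 read. Stmn2, a microtubule regulator of growing axons and a common neuronal marker (chromosome 3, 8509360 to 8561606), had 0 reads in all 12 NSC34 libraries and 193 reads in co-cultured C2C12, where it was at 72.6, 112 and 117 CPM. Its C2C12 level was at least 1.95-fold higher, a bound that is lost without NSC34 replicate 2. Stmn2 was thus no marker of the libraries labelled NSC34, and the neuronal side is described below by the genes that were read there.

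**Figure D1:**
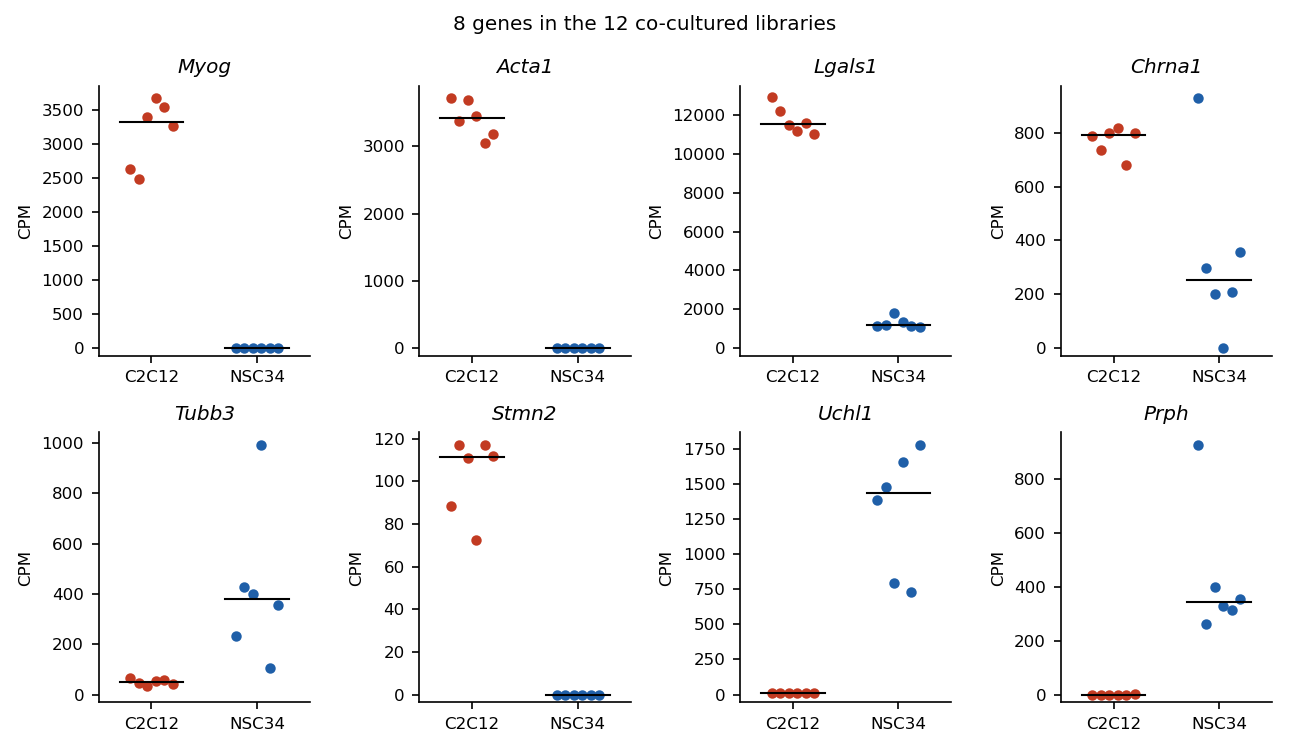
Level of 8 genes in each co-cultured library, in CPM of all library reads (y axis, from 0), with C2C12 in red and NSC34 in blue, and the group median as a black bar (n = 6 each). Myog and Acta1 were at 0 in NSC34, Chrna1 overlapped between the lines, and Stmn2 was read in C2C12 alone.

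Across all genes, 1113 had enough reads to be tested, and they held 78.1% of the co-cultured C2C12 reads and 72.2% of the NSC34 reads. By the quasi-likelihood test of edgeR, with a Benjamini-Hochberg adjusted p under 0.05, 314 of these (28.2%) were higher in C2C12 and 219 (19.7%) higher in NSC34, and 601 had an unadjusted p under 0.05. The libraries did not overlap, with C2C12 above, in 239 genes (21.5%) and, with C2C12 below, in 86 (7.73%). These shares are the background for the gene groups below. The filter on low counts let through 86 genes with 0 NSC34 reads, which passed it through C2C12 alone and so had to differ, while 0 tested genes had no C2C12 read. A gene low in C2C12 likewise passed only where NSC34 was high, so calls on that side follow in part from the filter too. The median log2 fold change was 0.11. Scaling by TMM factors in place of library totals moved it by 0.20, and by TMMwsp factors, made for sparse counts, by 0.21, and with the latter 372 genes were higher in C2C12 and 166 in NSC34 (69.1% of calls higher in C2C12, against 58.9% with library totals). limma-voom moved the median the other way by 0.20 and gave 262 and 270 (49.2%), and without a filter on low counts 401 and 722 genes passed (35.7%), so which line had more calls depended on the setting. Differences smaller than that shift are therefore given no direction below. With replicate 2 of NSC34 left out, 254 and 168 genes passed, and 368 of the 532 calls that could be tested again were kept. Leaving out any 1 C2C12 library left 543 to 549 genes past the filter, of which 178 to 193 were higher in C2C12 and 143 to 150 in NSC34.

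**Figure D2:**
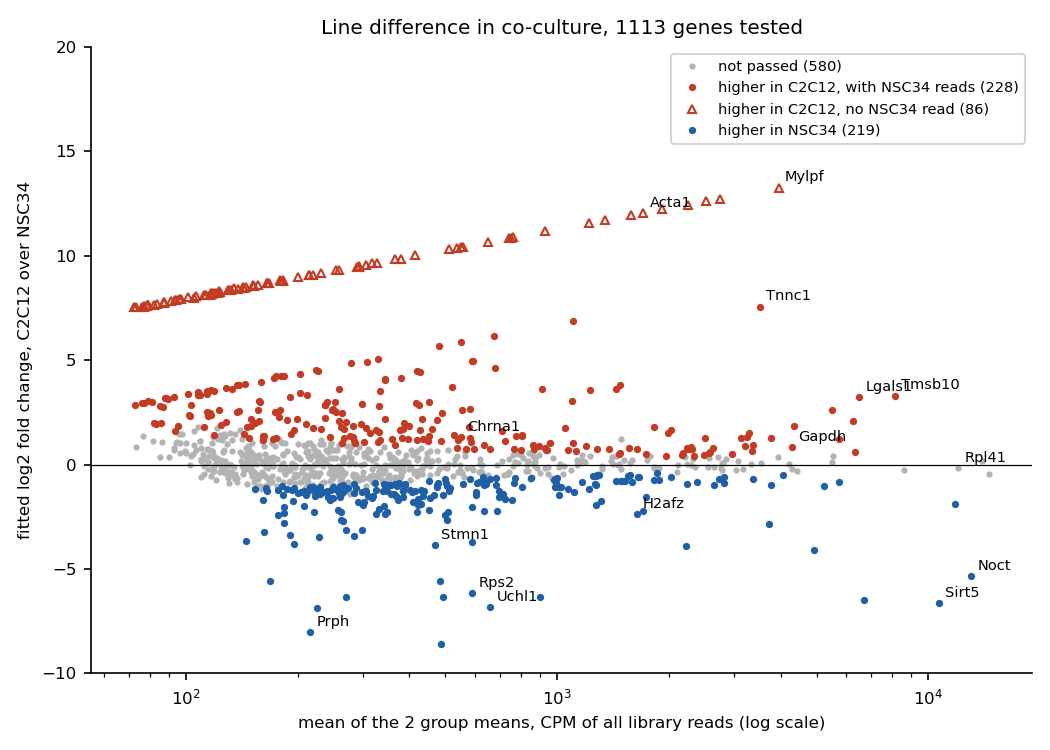
Fitted log2 fold change of C2C12 over NSC34 (y axis) against the mean level in CPM (x axis, log scale) for the 1113 tested genes. Red, higher in C2C12 (open triangles have no NSC34 read, so their height is set by the fit and is no estimate of size), blue, higher in NSC34, grey, not passed. The 86 triangles form a band of their own above the genes with reads in both lines.

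Genes of the contractile apparatus made the widest difference. The 53 genes of the sarcomere list took between 4.81 and 5.55% of each C2C12 library (median 5.03%) and between 0 and 0.0429% of each NSC34 library (median 0.0266%), with 53 members read in C2C12 and 6 in NSC34. Mylpf, the fast regulatory myosin light chain (chromosome 7, 127208890 to 127214298), was at 7055, 7855 and 9292 CPM in C2C12 and at 0 reads in NSC34, at least 146-fold higher. Myl1 and Myl4, other myosin light chains, and Tnnc2, fast troponin C, were at least 100-fold, 82.9-fold and 94.0-fold higher, each with 0 NSC34 reads. Tnnc1, slow and cardiac troponin C (chromosome 14, 31208312 to 31211729), was at 6565, 6749 and 8455 CPM in C2C12 and had 2 reads in NSC34, both in replicate 2. Its pooled ratio was 195 (95% interval 54.1 to 1610, adjusted p by edgeR = 3.06e-17). Of the 24 tested members 23 were higher in C2C12 and 0 in NSC34, but 19 of the 24 had no NSC34 read, so this count follows in part from the filter. The 1 that did not pass was Tpm3, a tropomyosin that non-muscle cells also make, with a log2 fold change of 0.48 (adjusted p by edgeR = 0.432).

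The regulators, energy genes and calcium genes of muscle also took a higher share in every C2C12 library than in any NSC34 library, by differing amounts. Myogenic regulators took 0.326 to 0.452% of C2C12 reads and 0 to 0.0733% of NSC34 reads. The NSC34 share was 20 reads in 6 members, 13 in replicate 2 and 7 in replicate 5. Most of these were of members not named here, as Myog, Mef2c and Myod1 held 1 of them. Mef2c, a transcription factor that works with myogenin, had a C2C12 median of 187 CPM and 1 NSC34 read, a ratio of 9.86 with a 95% interval of 1.76 to 391. Myod1, the factor that commits cells to the muscle lineage, was at 20.9, 40.8 and 72.6 CPM in C2C12 and 0 reads in NSC34, which allows a level as high as that of C2C12. Muscle energy and oxygen genes took 0.497 to 0.559% of C2C12 reads and 0.0942 to 0.200% of NSC34 reads, a ratio of means of 3.81 against 221 for the sarcomere list, and 7 of 9 tested were higher in C2C12, 4 of the 9 having 0 NSC34 reads. Mb (myoglobin, the oxygen store) had 2019 C2C12 reads and 1 NSC34 read, and Ckm (muscle creatine kinase) 941 and 0. Casq2, which binds calcium in the sarcoplasmic reticulum, was at least 10.1-fold higher in C2C12, and Ryr1, its release channel, at least 4.14-fold. Muscle calcium and membrane genes as a list took 0.161 to 0.211% of C2C12 reads and 0 to 0.0209% of NSC34 reads. Mymk, the fusion protein myomaker, was at 462, 520 and 584 CPM in C2C12 and at 0 reads in NSC34, at least 9.56-fold higher.

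**Figure D3:**
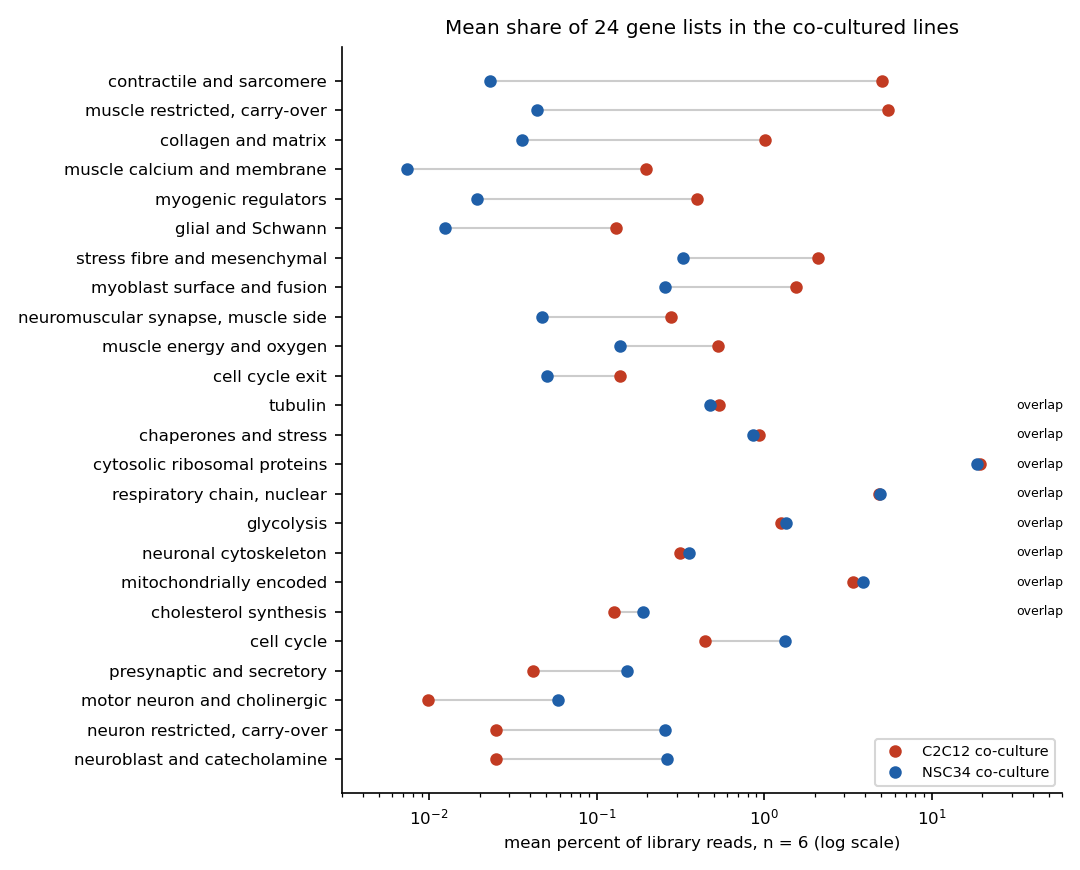
Mean percent of library reads (x axis, log scale, n = 6 per line) of 24 gene lists in co-cultured C2C12 (red) and NSC34 (blue), ordered by the ratio of the lines. The word overlap marks the 8 lists whose libraries overlapped between the lines, the housekeeping lists and the neuronal cytoskeleton list among them. Muscle and matrix lists stood apart towards C2C12, and the other neuronal lists and the cell cycle list towards NSC34.

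Of Apoe, Lrp4 and the genes of receptor clustering given here, Chrna1 alone had reads in co-cultured NSC34. Lrp4, the agrin receptor of muscle (chromosome 2, 91457511 to 91513779), was at 478, 605 and 744 CPM in C2C12, at least 11.4-fold higher than in NSC34. Dok7, the activator of MuSK, was at least 2.53-fold and Rapsn, the receptor scaffold, at least 1.49-fold higher in C2C12. Without NSC34 replicate 2 the bound for Dok7 was 1.14-fold, and Rapsn lay under the limit. Musk (77 C2C12 reads), Apoe (45) and Agrn (4) had pooled C2C12 levels under the NSC34 limit of 54.5 CPM, so a difference between the lines was not detectable at this depth. Chrna1, the alpha subunit of the muscle acetylcholine receptor (chromosome 2, 73563215 to 73580338), had counts in both lines, but its transcript shares at least 100 bases at 90% identity with 483 other genes, so these counts cannot be assigned to the gene with certainty. It was at 680, 794 and 819 CPM in C2C12 and at 0, 253 and 928 CPM in NSC34, where replicates 1 to 6 held 4, 9, 1, 0, 2 and 1 reads. The groups overlapped, since the highest NSC34 library lay above all of C2C12, while the fit gave a log2 fold change of 1.30 (SE 0.300, adjusted p by edgeR = 0.000684). Chrng, the gamma subunit of the same receptor, had 270 C2C12 reads and 0 in NSC34, at least 2.73-fold higher, a call that limma-voom did not make (log2 fold change 0.95, adjusted p by limma = 0.0592).

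Promoters of muscle genes are known for the E-box CAGCTG, a site that MYOD and myogenin can bind, and neuroendocrine promoters for the cyclic AMP response element TGACGTCA. Of the 44 genes of a muscle-restricted list, 34 had a promoter in RefSeq (GRCm38.p6), and 15 of these (44.1%) held CAGCTG in the 250 bases before the start, against 12.8% of 27025 genes. Both motifs read the same on either strand, and neither contains the other. Among tested genes CAGCTG was in 12.4% of promoters, in 16.6% of those higher in C2C12, in 21 of 175 of those higher in NSC34, and in 9 of 34 (26.5%) of a neuron-restricted list. TGACGTCA was in 1.62% of all promoters and in 4 of 34 (11.8%) of that neuron-restricted list (Chgb, Scg2, Syn1 and Th). Among tested genes it was in 3.55% of promoters, in 2.9% of those higher in C2C12 and in 2.86% of those higher in NSC34. A match is a description of these letters and no evidence of binding. Shown are the 250 bases before the RefSeq start, which for Mylpf and Chgb lies inside the longer GENCODE gene, from 5′ to 3′ on the strand of the gene, of 2 contractile genes without an NSC34 read, of the receptor subunit read in both lines and of an NSC34 gene without a C2C12 read, with the motif in capitals.
Acta1, chr8:123894776-123895025, strand minus: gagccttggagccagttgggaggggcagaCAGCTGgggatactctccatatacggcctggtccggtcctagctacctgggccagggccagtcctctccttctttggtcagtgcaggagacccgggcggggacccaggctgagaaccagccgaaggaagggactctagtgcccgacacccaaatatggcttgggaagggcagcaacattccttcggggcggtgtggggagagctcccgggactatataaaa
Mylpf, chr7:127211358-127211607, strand plus: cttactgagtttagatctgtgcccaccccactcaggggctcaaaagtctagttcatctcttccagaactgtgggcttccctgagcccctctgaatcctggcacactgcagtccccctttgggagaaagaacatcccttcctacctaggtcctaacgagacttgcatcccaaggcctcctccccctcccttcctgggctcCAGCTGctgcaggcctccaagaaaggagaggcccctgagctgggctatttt
Chrna1, chr2:73580339-73580588, strand minus: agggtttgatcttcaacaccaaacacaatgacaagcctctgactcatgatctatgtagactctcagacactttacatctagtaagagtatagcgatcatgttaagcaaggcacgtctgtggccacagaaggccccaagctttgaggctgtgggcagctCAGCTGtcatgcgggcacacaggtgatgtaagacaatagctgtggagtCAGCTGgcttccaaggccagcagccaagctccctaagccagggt
Chgb, chr2:132781392-132781641, strand plus: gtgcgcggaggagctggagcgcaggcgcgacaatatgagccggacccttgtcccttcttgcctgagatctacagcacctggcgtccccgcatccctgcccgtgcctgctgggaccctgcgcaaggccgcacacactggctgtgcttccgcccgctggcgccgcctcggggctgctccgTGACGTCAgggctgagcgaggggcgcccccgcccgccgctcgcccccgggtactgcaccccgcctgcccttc
Acta1 held its E-box 221 bases before the start, Mylpf 51 bases before it and Chrna1 held a pair, 92 and 44 bases before it. Chgb held the response element 72 bases before the start. Myog and Tnnc1 held no CAGCTG in that window, and Prph and Stmn3 no TGACGTCA.

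Matrix, stress fibre and actin-binding genes also stood on the C2C12 side. Collagen and matrix genes (49) took 0.964 to 1.06% of C2C12 libraries and 0 to 0.0713% of NSC34 libraries. Sparc, a collagen-binding secreted protein (chromosome 11, 55394500 to 55423183), was at 1968, 2220 and 2439 CPM in C2C12 and had 1 NSC34 read, a ratio of 120 (95% interval 21.5 to 4730). Col6a3 and Col3a1, collagen chains, and Spp1 (osteopontin) were at least 27.0-fold, 18.4-fold and 20.5-fold higher. Fstl1, a secreted glycoprotein whose transcript shares sequence with 41 other genes, was the 1 tested member of 14 that did not pass (log2 fold change 0.34, adjusted p by edgeR = 0.600). Stress fibre and mesenchymal genes took 1.98 to 2.28% of C2C12 libraries and 0.298 to 0.377% of NSC34 libraries, so NSC34 held reads of this list in each library. Acta2, smooth muscle actin, was at 0 NSC34 reads and at least 34.1-fold higher in C2C12. S100a6, a calcium-binding protein, was at 9397, 9836 and 11810 CPM in C2C12 and at 2111, 2486 and 2797 CPM in NSC34, a log2 fold change of 2.08 (SE 0.129).

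High levels in C2C12 with clear reads in NSC34 were found for Lgals1 and Tmsb10. Lgals1, galectin-1 (chromosome 15, 78926725 to 78930465), was at 11000, 11570 and 12930 CPM in C2C12 and at 1069, 1174 and 1798 CPM in NSC34, a log2 fold change of 3.23 (SE 0.140, adjusted p by edgeR = 4.74e-17). Tmsb10, thymosin beta 10, which holds actin monomers, was at 13730, 14560 and 16430 CPM against 1151, 1422 and 2197 CPM, a log2 fold change of 3.30, with the limit that Gm9844 is a near copy of it. Its relative Tmsb4x, thymosin beta 4, was at 3270, 3960 and 4238 CPM in C2C12 and had 0 reads in all co-cultured NSC34 libraries. No library of one line reached the other for these genes. Tpt1, a calcium-binding growth protein, and Crip1, a LIM domain protein, were higher in C2C12 by 2.62 and 3.79 on the log2 scale.

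NSC34 libraries held reads of neuronal and neuroblast genes that C2C12 libraries lacked or held at lower levels. The label motor neuron was checked against its defining markers. Chat, which makes acetylcholine, had 1 read over the 6 co-cultured libraries, and Isl1, a LIM factor of motor neurons, had 2. For Mnx1, Slc18a3 and Slc5a7 no read count is given here. A level up to 54.5 CPM for a gene without a read is within what this depth allows. Prph, peripherin, an intermediate filament of neurons with peripheral axons (chromosome 15, 99055174 to 99058978), was read in all 6 libraries, with 4, 8, 2, 1, 3 and 1 reads and a lowest, median and highest level of 264, 344 and 928 CPM. Co-cultured C2C12 held 1 Prph read. The log2 fold change was -8.02 (SE 0.640, adjusted p by edgeR = 3.11e-11), and the pooled ratio was 626 in favour of NSC34 (95% interval 99.5 to 26000). Uchl1, a ubiquitin hydrolase abundant in neurons (chromosome 5, 66676091 to 66687234), was at 733, 1438 and 1781 CPM in NSC34 and at 8.54, 11.1 and 13.9 CPM in C2C12, a log2 fold change of -6.83 (SE 0.311, adjusted p by edgeR = 1.45e-16). No C2C12 library reached the lowest NSC34 library for either gene. Both were too low in C2C12 to pass the filter on low counts there. They were tested because all 6 NSC34 libraries were high, so these calls and the lack of overlap follow in part from the filter.

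Further neuronal genes were under the filter, and some without a C2C12 read are given by their reads. Other neuronal genes were read in C2C12. Of the neuron-restricted list, 24 members had reads in co-cultured C2C12, the deeper libraries, and 29 in co-cultured NSC34. Gap43, Stmn4, Nefl, Nefm, Ddc and Gata3 were among those read in C2C12, and their levels are not compared between the lines here. Of the 156 NSC34 reads of the list, 109 were of 20 genes with no read in C2C12 controls. Chgb, Stmn3 and Hand2 were picked because they had no C2C12 read, so their bounds do not stand for the list. Chgb (chromogranin B, a protein of secretory granules, chromosome 2, 132781278 to 132795079) held 4, 20, 0, 2, 7 and 2 reads in replicates 1 to 6 of NSC34 and 0 reads in C2C12, at least 384-fold higher in NSC34 against the C2C12 limit. Stmn3, a neuronal relative of Stmn2 (chromosome 2, 181306459 to 181314500), held 0, 9, 1, 0, 5 and 1 reads against 0, at least 176-fold higher. Hand2, a transcription factor of sympathetic neurons and neuroblasts, had 11 NSC34 reads and 0 C2C12 reads, at least 121-fold higher. Replicate 2, the deepest library, held most reads of Chgb and Stmn3. The neuroblast and catecholamine list took 0.163 to 0.398% of NSC34 libraries and 0.0209 to 0.0293% of C2C12 libraries. Most of its NSC34 share came from its 2 tested members, Uchl1 and Stmn1, and Stmn1 is on the cell cycle list too. The motor neuron and cholinergic list took 0.0356 to 0.0928% and 0.00906 to 0.0108%, and 19 of its 29 NSC34 reads were of Prph. Presynaptic and secretory genes took 0.0994 to 0.214% of NSC34 libraries and 0.0343 to 0.0469% of C2C12 libraries. The 1 tested member of that list went the other way: Ncam1, an adhesion molecule that myoblasts also carry, was higher in C2C12 by 2.17 (SE 0.588, adjusted p by edgeR = 0.00316).

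**Figure D4:**
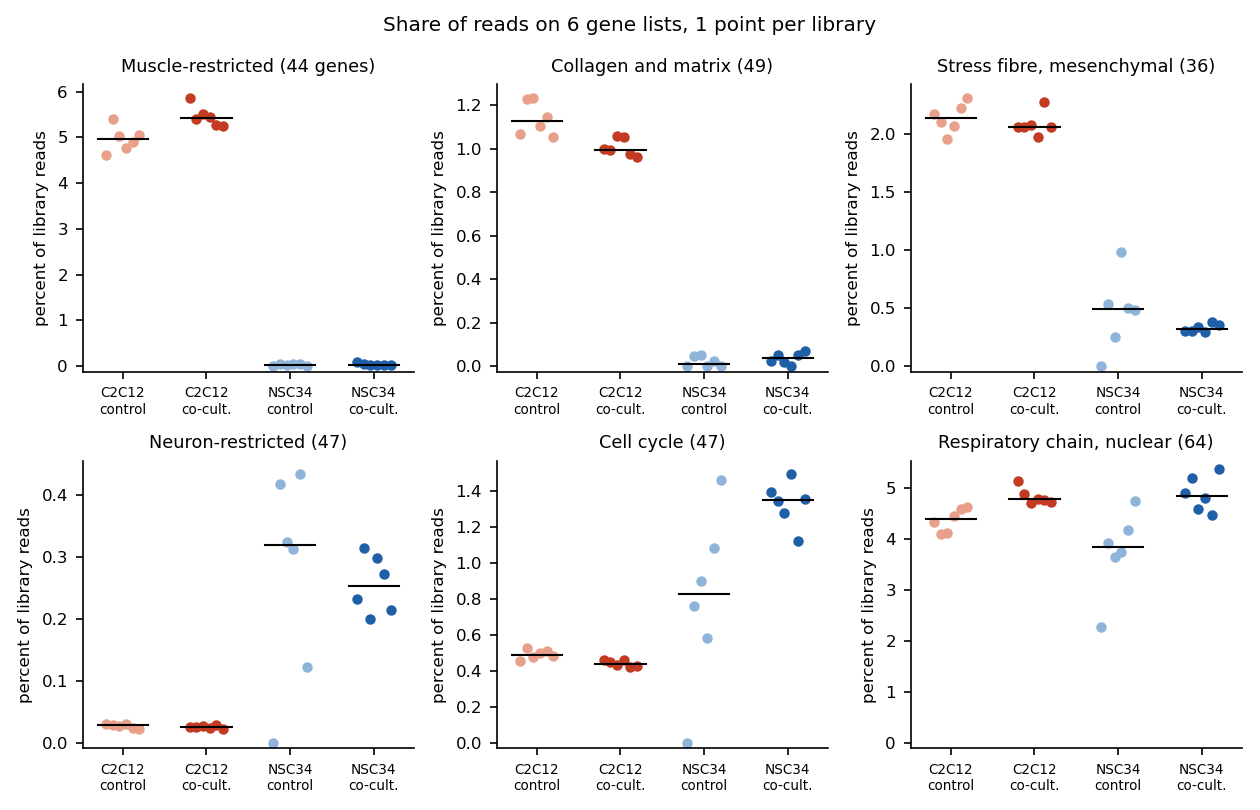
Percent of library reads (y axis, from 0) taken by 6 gene lists in each library of the 4 groups, with a black bar at the median (n = 6). In co-culture the lines stood apart for the muscle, matrix, stress fibre, neuron and cell cycle lists, and overlapped for the nuclear-encoded respiratory chain.

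Cell cycle genes took more of the reads of each NSC34 library than of any C2C12 library. The 47 genes took 1.12 to 1.49% of co-cultured NSC34 libraries and 0.420 to 0.463% of C2C12 libraries, with 42 and 46 members read. Of 11 tested, 8 were higher in NSC34, 1 was higher in C2C12 and 2 did not pass, against 19.7% of all tested genes higher in NSC34, and the median log2 fold change was -2.26 against 0.11 over all. Hmgb2, a chromatin protein of dividing cells that shares sequence with 11 other genes (chromosome 8, 57511907 to 57515999), was at 713, 1096 and 1418 CPM in NSC34 and at 67.2, 86.1 and 120 CPM in C2C12, a log2 fold change of -3.70 (SE 0.261, adjusted p by edgeR = 2.11e-12). H2afz, the histone variant H2A.Z, was at 1625, 2523 and 3977 CPM against 425, 514 and 575 CPM, a log2 fold change of -2.37. Stmn1, a microtubule regulator of dividing and of immature neuronal cells (chromosome 4, 134468320 to 134473843), was at 232, 1045 and 1326 CPM against 48.8, 52.5 and 82.6 CPM, a log2 fold change of -3.86. Cdk1, the kinase of mitosis, was at 209, 414 and 663 CPM against 17.1, 37.4 and 66.0 CPM, a log2 fold change of -3.47. Hmgb2, Stmn1 and Cdk1 were too low in C2C12 to pass the filter there, and were tested because NSC34 was high. Their lack of overlap, and the count and median above, thus follow in part from the filter. The share of all 47 genes does not rest on it. Hmgb2, H2afz, Stmn1 and Cdk1 did not overlap between the lines, and all 4 were higher in NSC34. The opposite was found for Cdkn1a, the p21 inhibitor that holds myoblasts out of the cycle, at 832, 962 and 1046 CPM in C2C12 and 1 read in NSC34 (adjusted p by edgeR = 4.94e-10). Ccnd3, the D cyclin of muscle differentiation, was the 1 cycle gene higher in C2C12 (log2 fold change 2.95, on 1 NSC34 read). In the controls the cell cycle share was 0.456 to 0.528% in C2C12 and 0 to 1.46% in NSC34, whose control libraries hold 88 to 4624 reads.

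The genes of smallest p on the NSC34 side were of another kind. Noct, a circadian phosphatase gene (chromosome 3, 51224447 to 51251644), was at 17410, 25590 and 31400 CPM in NSC34 and at 522, 628 and 744 CPM in C2C12, a log2 fold change of -5.35 (SE 0.139, adjusted p by edgeR = 3.15e-22). Sirt5, a mitochondrial deacylase gene (chromosome 13, 43365496 to 43395203), was at 9281, 21330 and 30990 CPM against 177, 228 and 239 CPM, a log2 fold change of -6.65. Wdr31 and Sgip1 followed with -6.50 and -4.10. These levels cannot be assigned to the named genes, since parts of their transcripts are found in other genes. Sirt5 and Wdr31 share 589 bases at 98.3% identity, and 21 and 63 other genes share at least 100 bases at 90% identity with them. Noct shares such a stretch with 100 other genes, Sgip1 with 33 and Brd8 with 330. The same limit holds for Chrna1 (483), Gapdh (182), Fstl1 (41), Rpl39 (18), Ldha (15), Hspa8 (13) and Hmgb2 (11). Genes with 10 or more such partners made up 211 of 1111 tested genes with a sequence, 37 of the 314 higher in C2C12 and 70 of the 219 higher in NSC34. With them left out of counts and totals, an alternative added after seeing the data, 247 and 194 genes passed of 930, and 396 of the 426 earlier calls that could be tested again were kept.

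Near-identical copies also took opposite sides. Rps2, a protein of the small ribosomal subunit, was at 8.54, 14.1 and 18.7 CPM in C2C12 and at 464, 1260 and 1657 CPM in NSC34. Its processed copy Rps2-ps10, 99.4% identical over 88.1% of Rps2, was at 1149, 1312 and 1678 CPM in C2C12 and held 3 reads in NSC34, all in replicate 2. Their mean levels summed to 1358 CPM in C2C12 and 1185 CPM in NSC34. Rps26 and Rps26-ps1 did the same in part: the gene had means of 876 CPM in C2C12 and 6579 CPM in NSC34, the copy 3841 and 1169 CPM. How reads were divided between such copies in each table is not given in the sources used here, so these calls are uncertain.

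Genes that every cell uses took like shares in both lines. Cytosolic ribosomal proteins (84) took 18.9 to 19.9% of C2C12 libraries and 17.4 to 19.9% of NSC34 libraries. Nuclear-encoded respiratory chain genes (64) took 4.70 to 5.15% and 4.47 to 5.38%, and mitochondrially encoded genes 2.88 to 3.97% and 2.95 to 4.85%. Within these lists single genes differed both ways. Of 60 tested respiratory genes 11 were higher in C2C12 (18.3%, against 28.2% of all tested genes) and 10 in NSC34 (16.7%, against 19.7%). Ndufa4, of the terminal oxidase, was at 1565, 1632 and 1778 CPM in C2C12 and at 2494, 3233 and 6298 CPM in NSC34, while Uqcrh, of complex III, was higher in C2C12 by 2.18, with its 8 NSC34 reads all in replicate 2. Of 79 tested ribosomal genes 21 were higher in C2C12 and 18 in NSC34, with the caution on copies above, and Rpl39 was higher in C2C12 by 1.51. Of 12 mitochondrially encoded genes mt-Co1 was higher in C2C12 by 1.81 and mt-Cytb in NSC34 (log2 fold change -0.83).

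Glycolysis, tubulin and chaperone lists overlapped between the lines as well. Glycolytic and low-oxygen genes took 1.15 to 1.37% of C2C12 reads and 1.05 to 1.62% of NSC34 reads. Gapdh, an enzyme of the middle of glycolysis with near copies such as Gm7336, was at 5053, 5416 and 6432 CPM in C2C12 and at 1425, 3056 and 4641 CPM in NSC34, a log2 fold change of 0.83 (SE 0.144, adjusted p by edgeR = 2.75e-05). Ldha, which makes lactate, and Mif, a cytokine induced by low oxygen, were higher in NSC34 (log2 fold changes -1.05 and -0.94), with libraries that overlapped. Tubulin isotypes differed in both directions: Tubb2a and Tubb6 were higher in C2C12 by 3.02 and 4.25, while Tubb5 was higher in NSC34 (log2 fold change -0.88), a call that was lost without replicate 2 of NSC34 (-0.56), with TMMwsp factors (-0.67) and with totals taken within length bins (-0.52). Among chaperones, Hspb1, a small heat shock protein abundant in muscle, had 2013 C2C12 reads and 0 NSC34 reads, at least 20.4-fold higher, and Cryab, another of that family, 2123 and 2. Hspa8, the constitutive HSP70, was higher in NSC34 (log2 fold change -0.79). Gapdh, Ldha and Hspa8 share sequence with 10 or more other genes, so their levels are uncertain.

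RNA of one line in libraries of the other was looked for with genes that the other line should lack. Of the markers of other cell types, adipocyte genes took at most 0.0146% of a C2C12 library and 0 reads in NSC34, and endothelial and blood genes had 5 reads and 1 read. Glial and Schwann genes took 0.119 to 0.146% of C2C12 libraries (2380 reads, 2123 of them of Cryab, which muscle also makes) and 0 to 0.0419% of NSC34 libraries. Their part in the comparison was not tested. The 44 muscle-restricted genes, at 54560 CPM in co-cultured C2C12, had 26 reads in co-cultured NSC34, 473 CPM (95% interval 309 to 693) or 0.866% of the C2C12 level. NSC34 controls, which were not grown with C2C12, had 6 such reads in 15858, or 0.739% of the level in C2C12 controls (0.271 to 1.61). The intervals overlapped. Of the 26 reads 17 were counted for Chrna1, which NSC34 controls also held (3 reads), and which, as given above, may include reads of other genes with the same stretch. Without Chrna1 9 reads were left, 0.304% (0.139 to 0.577) in co-culture against 0.375% (0.0773 to 1.09) in controls, and 7 of the 9 were in replicate 2. These were Cox6a2 (3 reads), Tnnc1 and Tnnt1 (2 each) and Mb and Tnnt2 (1 each). Without replicate 2 the share was 0.151%. Mylpf, Myl1, Tnnc2, Myl4, Acta1 and Myog, which held 5451 to 14406 reads each in co-cultured C2C12, were at 0 in co-cultured NSC34.

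Genes picked on the controls alone gave like limits. Over all genes, 19 were at 1000 CPM or more in C2C12 controls with 0 reads in NSC34 controls, among them Tmsb4x, Col3a1, Cdkn1a and Ttn. In co-cultured NSC34 they had 6 reads in 4 genes, 0.195% of the C2C12 level (0.0715 to 0.424), and in controls the 0 reads allow up to 0.419%. The controls were chosen to be at 0, so the rise from 0 follows in part from the choice. Of the muscle-restricted genes only Chrna1 had the 10 reads needed for a test of co-culture against control in NSC34, where 3 of 1109 genes were higher (0.271%). Its log2 fold change was 0.69 (95% interval -1.02 to 2.40, adjusted p by edgeR = 0.953), so 0 muscle-restricted genes passed and 0 had an unadjusted p under 0.05. DESeq2 called 0 of all 1109 genes, so it adds nothing on this gene. With only Chrna1 tested, whose counts cannot be assigned with certainty, the test cannot decide on carry-over.

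**Figure D5:**
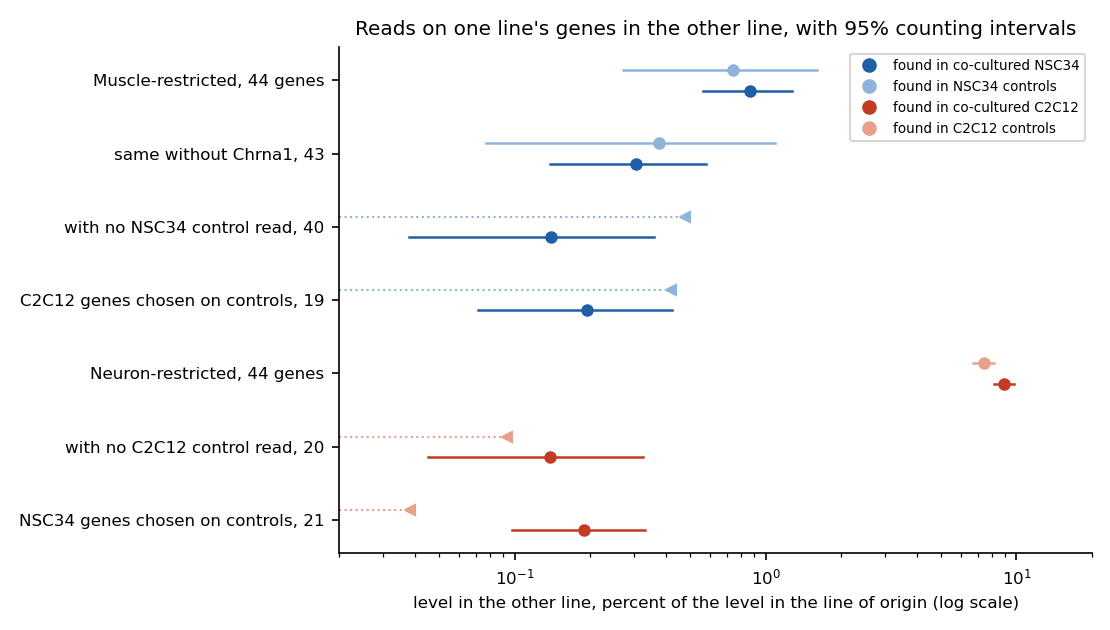
Pooled level of a line's genes in the other line as percent of the level in the line of origin (x axis, log scale), with 95% counting intervals. These cover the reads found in the other line only and leave out the counting error of the level of origin. Dark points are co-culture, light points controls, and arrows mark the upper bound of sets with 0 reads. The intervals of co-culture and control overlapped in each set but 1, the 21 NSC34 genes chosen on the controls.

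In the other direction, 44 neuron-restricted genes were at 2836 CPM in co-cultured NSC34 and at 254 CPM in co-cultured C2C12 (460 reads, 231 to 278). The 3 others of the list were not found by name in the counts of either line. C2C12 controls stood at 271 CPM (245 to 299), so the level with NSC34 present was within the counting error of the level without it. Of the 460 reads 193 were of Stmn2 and 93 of Tubb3, which C2C12 controls held too (176 and 97). Among the genes with 0 reads in C2C12 controls, 20 neuron-restricted genes had 5 reads in co-cultured C2C12, 0.139% of the NSC34 level (0.0452 to 0.325). Over all genes, 21 had 3 or more reads in NSC34 controls and 0 in those of C2C12. They had 12 reads in 7 genes of co-cultured C2C12, 0.189% (0.0975 to 0.330), where 0 control reads allow up to 0.0383%. Both leave out the counting error of the NSC34 level, which rests on 193 reads in co-culture and 102 in controls. These intervals do not overlap, but the zeros were again chosen on the controls. The 12 reads were of F2rl2 (2), Tmtc2 (3), Nxf3 (3), Prph, Bex1, Rhox5 and Adora2a (1 each). Of the 5 genes of the set with most reads in NSC34, Bex2 (36), Chgb (35) and Stmn3 (16) had 0 reads in co-cultured C2C12. Rhox5 (21) and Prph (19) had 1 each. Whether the 12 reads came from NSC34 was not tested. In C2C12 11 neuron-restricted genes were tested for co-culture against control and 0 passed by edgeR or DESeq2, where 0.228% of 10108 genes were higher, and 2 had an unadjusted p under 0.05. One of them was Dbh, an enzyme of noradrenaline synthesis, with 17 reads against 4 (log2 fold change 1.60, adjusted p by edgeR = 0.494). Co-cultured NSC34 itself held 1 read of Dbh.

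Whether the distance between the lines changed with co-culture was tested as an interaction over all 24 libraries. Of 1328 genes 0 passed (0%, edgeR), 105 had an unadjusted p under 0.05, and DESeq2 called 2. The smallest adjusted p was 0.297, shared by 19 genes. H2afz had mean levels of 634 and 507 CPM in control and co-cultured C2C12 and of 1016 and 2768 CPM in NSC34 (interaction log2 value -1.08, SE 0.318). Higd1a, a mitochondrial protein induced by low oxygen, had 219 and 348 CPM in C2C12, and 0 and 37 reads in control and co-cultured NSC34. S100a6 had 9878 and 10070 CPM in C2C12 and 3982 and 2457 CPM in NSC34 (0.88, SE 0.279). A gene that misses this test is not shown to have kept the same distance, since the 6 NSC34 controls hold 15858 reads in all.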

How the data were processed

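Reads had been counted per transcript and deposited by the authors as raw counts, 1 table per line, and those counts were used without normalization. The genome build was GRCm38, per the submitters' processing notes; no aligner, counter or strand setting is named there, so each is not given in the sources used here. Transcripts were summed per gene with GENCODE M21 (37415 of 37677 transcripts matched in the C2C12 table and 10374 of 10427 in the NSC34 table, 99.8% of reads in each). Promoters came from RefSeq (GRCm38.p6). Samples were grouped by the labels.

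Lines were compared with the quasi-likelihood test of edgeR 4.0.16 in R 4.3.3, with deposited totals as library sizes, genes kept by filterByExpr, and Benjamini-Hochberg adjusted p under 0.05 over all tested genes. Co-culture was tested against control within each line, for genes with at least 10 reads, and as an interaction. The test was checked on simulated data. limma 3.58.1 and DESeq2 1.42.0 gave alternatives, as did other scalings, filters and left-out libraries. Genes without reads were given a limit of 3 reads over the group. Shared sequence was found with BLAST+ 2.17.0.

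Members and gene lists were chosen with earlier results of these data known. Named genes were drawn from the 4 line markers, the 12 genes of smallest p in each direction and the 5 highest means. They were also drawn from the 5 largest fold changes in each direction among genes without overlap. Each list gave up to 4 tested genes of smallest p (or up to 3 of most reads). Further sources were muscle-restricted genes with most reads in NSC34 and neuron-restricted genes with most reads in C2C12. The last were the 5 smallest p of each sign of the interaction and genes of the title. Some genes that met these rules, such as Gm6641, Apobec3, Spata7 and Lrrc17, are not described above. Other named genes, such as Tpm3, Fstl1 and Bex2, were chosen after their values were seen. A few genes are not reported here.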

Additional observations from a re-analysis of the deposited data

Results flagged for a closer look

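Each of 66 values (read totals, gene levels and list shares of the 6 libraries of a line) was examined for a library set apart from the rest, by a gap over the range of the group above 0.625. This held for 11. The limit stands for about 5% by chance in normally spread values, which levels on few reads are not. A gene read in only 1 of the 6 libraries always passes it, so the 11 cannot be set against 5%. Replicate 2 of co-cultured NSC34 had 30314 reads, against 9554 in the next. The same library alone had reads of Tnnc1 (66 CPM) and Rps2-ps10 (99 CPM), with 0 in the others, at read numbers of 2 and 3. In NSC34 replicate 1 Prph was at 928 CPM on 4 reads (next 399.5 CPM), and in replicate 4 Tubb3 was at 994 CPM on 3 reads (next 429 CPM). Chgb was at 0 CPM in NSC34 replicate 3, with the next library at 659.8 CPM, and Lgals1 was at 1800 CPM there, with the next at 1326 CPM. In C2C12, replicate 1 had Tnnc1 at 8450 CPM (next 6995 CPM). C2C12 replicate 5 had S100a6 at 11800 CPM (next 9965 CPM) and 2.28% of its reads in stress fibre genes (next 2.08%). C2C12 replicate 6 held the 1 Prph read of its line, 3.73 CPM.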

How the results depend on the processing

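The counts of genes that differed between the lines moved with the filter and the depth. Without a filter 401 genes were higher in C2C12 and 722 in NSC34, with a mean of at least 10 reads 480 and 261, and with C2C12 libraries thinned to 4657 reads 38 and 18 of 89 tested genes passed, with 52 of 57 earlier calls kept. Leaving out 1 library at a time gave 178 to 420 genes higher in C2C12 and 143 to 295 in NSC34, with 543 to 1810 genes past the filter. With the replicate number as a block 297 and 207 genes passed, but same-numbered libraries did not deviate together (correlations -0.0598 to 0.128, and not every library was most like its own number). For the interaction DESeq2 called 2 genes. Signs turned for Rpl41 with TMM (0.091), TMMwsp (0.135) and DESeq2 (0.0547), for Elp6 (0.16) and Polr2l (-0.14) with limma-voom, for Rpl36 with totals within length bins (-0.26) and for mt-Nd4 without repeat-like genes (-0.013). The cause was not tested. Of the values of named genes under these alternatives, 2016 kept direction and call, 27 lost the call, 9 gained it and 7 turned. NSC34 depth limits what can be seen: without replicate 2, a gene with 0 NSC34 reads may have made up to 121 CPM.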

Other observations

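Other gene groups differed between the co-cultured lines as follows. Genes of the myoblast surface and fusion took 1.49 to 1.70% of C2C12 reads and 0.188 to 0.325% of NSC34 reads. Of 8 tested, 6 were higher in C2C12, and Cd9, a tetraspanin of many cell types, was higher in NSC34 (log2 fold change -0.89). The neuronal cytoskeleton list overlapped between the lines (0.292 to 0.350% and 0.320 to 0.464%). Of its 32 members 4 were tested, and 3 of these were higher in C2C12, where 28.2% of all tested genes were higher. Genes of cell cycle exit took 0.126 to 0.157% of C2C12 reads and 0.0209 to 0.0994% of NSC34 reads, and glial genes 0.119 to 0.146% and 0 to 0.0419%, with Cryab, also abundant in muscle, as the 1 tested glial member. Of 3 tested genes of cholesterol synthesis, Scd2, a fatty acid desaturase, was higher in NSC34 (log2 fold change -1.47), a call lost without replicate 2 (-1.04).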
